A study of Ovis aries with 32 samples.

Results

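Perirenal fat, the depot around the kidney, was compared between adult female sheep exposed to excess testosterone before birth and control females. The comparison used 8 of the 32 libraries of the series, chosen by their labels: 4 perirenal libraries from testosterone sheep 48, 185, 233 and 255, and 4 from control sheep 98, 131, 132 and 201. Values listed per library below keep this order of sheep. Mothers of the testosterone sheep were injected in the muscle 2 times a week with 100 mg (1.2 mg/kg) of testosterone propionate in 2 ml of corn oil, from day 30 to day 90 of gestation. For control mothers the labels name no injection. Each dam gave at most 1 female to a group, so every library was a different animal and p-values measured the spread between sheep. All 8 females had their ovaries removed when the second breeding season was over, and carried a 1 cm estradiol implant. All then received 2 progesterone implants for 14 days and then, for the last 18 h, 4 implants of estradiol, each 30 mm long, so the groups differed in prenatal exposure and shared the adult steroid treatment. They were housed together on a maintenance diet. Tissue was flash-frozen, total RNA had an integrity number of at least 7.0, and libraries read the 3′ end of transcripts, so counts were used without a length correction.

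Sheep exposed to testosterone as fetuses serve as a model of human polycystic ovary syndrome, a disorder in which androgen excess and disturbed ovulation are often joined by insulin resistance. Perirenal fat lies behind the peritoneum against the kidney and adrenal gland. In newborn lambs it is rich in brown adipocytes, which burn fuel for heat through the uncoupling protein UCP1, and it turns into white, lipid-storing fat after birth. Adipose tissue also holds progenitor cells and fibroblasts that build its matrix, blood vessels with their smooth muscle, and immune cells.

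The libraries held 4242625 to 8085558 counts in testosterone sheep and 5048842 to 8267824 in control sheep. No replicate library duplicated another, since their counts differed by a chi-square of at least 13.3 per degree of freedom. Levels are CPM, counts scaled to TMM-adjusted library sizes. A floor of 3 counts, which covers counting error only, lay at 0.388 to 0.690 CPM in testosterone and at 0.367 to 0.572 CPM in control libraries. The groups were mixed on the main axis of variation: the first principal component held 31.6% of the variance and ran from control sheep 201 to testosterone sheep 233. Testosterone sheep 233 also had the highest level of ADIPOQ, the gene of the fat cell hormone adiponectin, at 19912 CPM. On the second principal component, with 15.7% of the variance, the groups did not overlap. Testosterone sheep lay there at -31.3 to -5.63 and control sheep at -0.0319 to 34.0, so that the gap to control sheep 132 was narrow. This separation was not tested.

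The tissue label was borne out by its markers. All 13 adipocyte markers in the table were measured in enough libraries to be tested, with sums of 31732 to 59632 CPM in testosterone sheep and 30471 to 46947 CPM in control sheep. Kidney and adrenal gland are the neighbouring organs that a dissection could include. UMOD, SLC12A1, AQP2 and SLC34A1, which mark kidney tubules, had no count in any of the 8 libraries. CYP11A1, CYP17A1, CYP11B1, HSD3B1, NR5A1 and MC2R, which mark the steroid-producing adrenal cortex, had none either. The mesothelial genes MSLN, UPK3B and BNC1 reached at most 0.647 CPM in any library. Others of the 10 mesothelial genes were measured: WT1 at 74.7 to 120 CPM in testosterone sheep and 49.7 to 103 CPM in control sheep, and ALDH1A2 at 26.8 to 45.7 CPM in testosterone sheep and 33.0 to 81.4 CPM in control sheep (log2 fold change -0.72, unadjusted p under 0.05). KRT8 and KRT19 reached at most 3.69 and 4.92 CPM. The part of mesothelial cells in the results below was not tested. UCP1 was near 0, at 0, 0.469, 0.274 and 0 CPM in testosterone sheep, against 0, 0, 0.122 and 0 CPM in control sheep. ELOVL3 and ZIC1, other genes of brown fat, had no count. Further genes of the brown and beige fat list were measured: CIDEA at 35.3 to 127 CPM and EBF2 at 148 to 277 CPM over the 8 libraries. PPARGC1A and PRDM16, also of that list, reached at most 11.3 and 7.46 CPM. FOXD1, a transcription factor gene of the embryonic kidney stroma, lay between 17.2 and 24.3 CPM in all 8 libraries.

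No gene passed a false discovery rate (FDR) of 0.05 in edgeR's quasi-likelihood test of testosterone against control perirenal fat, 0 of 12872 genes tested (0%). The smallest adjusted p was 0.878. At an unadjusted p under 0.05 there were 691 genes (5.37% of those tested), 330 higher (2.56%) and 361 lower (2.8%) in testosterone sheep, close to the 1 in 20 that an even spread of p-values gives. Counts of list genes at that p are read against this 2.56% higher and 2.8% lower. Differences were small for most genes: the log2 fold change had its quartiles at -0.17 and 0.18, with a median standard error of 0.24, and 276 genes lay beyond 1 in size. limma-voom also called 0 genes, with 658 (5.11%) at an unadjusted p under 0.05. DESeq2 called 10 of 12854 genes (0.0778%) at the same FDR, 4 higher (0.0311%) and 6 lower (0.0467%) in testosterone sheep, with 723 (5.62%) at an unadjusted p under 0.05.

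**Figure D1:**
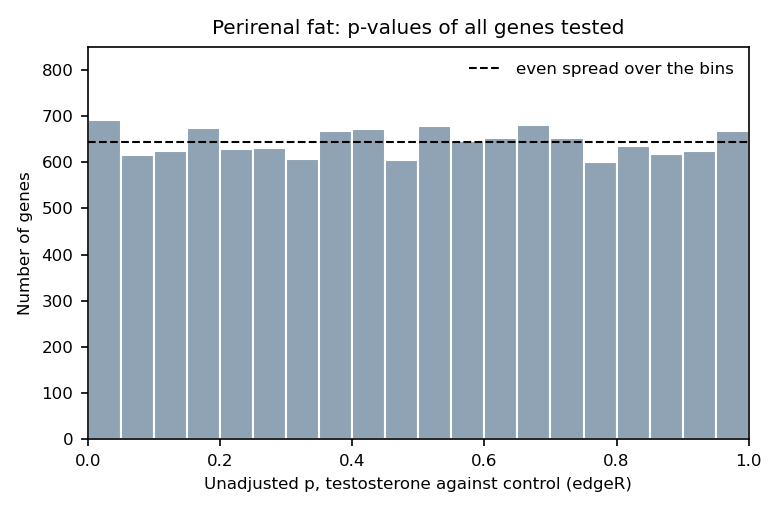
Number of genes (vertical axis) in each bin of the unadjusted edgeR p-value (horizontal axis) for testosterone against control perirenal fat, 4 sheep a group. The bin nearest 0 holds 691 genes and the dashed line marks the 643.6 that an even spread over the bins would give.

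The genes whose groups did not overlap are therefore given by their values. In 154 genes (1.2%) every testosterone library lay above every control library, and in 222 (1.72%) every one lay below, 376 in all (2.92%). Of these, 102 (0.792%) and 144 (1.12%) also had an unadjusted p under 0.05, and the 10 of smallest p in each direction follow, all with an edgeR adjusted p of 0.878. In bulk tissue fewer cells of a type and less RNA per cell cannot be told apart, here and for every gene below.

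Among the genes with higher values in testosterone sheep were a receptor, a GTPase, matrix proteases and a sialyltransferase. P2RY14, a receptor for UDP-glucose and related sugars, had 21.6, 16.9, 16.5 and 23.4 CPM in testosterone sheep, against 11.3, 8.4, 8.81 and 10.9 CPM in control sheep. RHOJ, a small GTPase of endothelial cells, had 35.4, 26.4, 22 and 32.7 CPM in testosterone sheep, against 10.3, 7.8, 13.1 and 17.3 CPM in control sheep. In both genes the groups stood apart, and the log2 fold change was 1.00 (SE 0.20) for P2RY14 and 1.27 (SE 0.26) for RHOJ. TRIQK, a small protein of the endoplasmic reticulum membrane, averaged 9.29 ± 1.32 CPM in testosterone sheep and 4.02 ± 0.913 CPM in control sheep (SD, n = 4 each). These 3 genes and ST6GAL2 were called higher by DESeq2, with an adjusted p of 0.0421 for P2RY14, RHOJ and ST6GAL2 and 0.0424 for TRIQK.

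ST6GAL2, a sialyltransferase that caps glycans, had 8.51, 7.5, 41.4 and 15.4 CPM in testosterone sheep, against 5.63, 1.2, 2.32 and 4.0 CPM in control sheep. Its groups did not overlap, but testosterone sheep 233 lay well above the rest, and the log2 fold change was 2.48 (SE 0.63). A pair of metalloproteases that cut extracellular proteins had the same layout. ADAMTS16, the secreted one, had 2.99, 5.0, 6.43 and 3.49 CPM in testosterone sheep, against 0.704, 0.6, 0.734 and 2.48 CPM in control sheep. MMP16, which sits in the membrane, had 52.7, 68.2, 109 and 60.4 CPM in testosterone sheep, against 18.9, 32.1, 32.8 and 46.1 CPM in control sheep. The gap between groups was narrow for ADAMTS16, where control sheep 201 came close to the lowest testosterone sheep. SLC22A3, a transporter that takes up catecholamines, averaged 12.4 ± 7.04 CPM in testosterone sheep and 3.66 ± 1.25 CPM in control sheep. GALM, an enzyme of galactose breakdown, the acyl-CoA dehydrogenase gene ACAD11 and the palmitoyltransferase gene ZDHHC15 completed the 10, with log2 fold changes of 0.92, 1.01 and 0.70. The locus numbers LOC114113424 and LOC114113943 had log2 fold changes of 0.87 and 1.25.

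Genes with lower values in testosterone sheep included regulators of actin and an immediate early gene. BAIAP2L1, an actin-binding protein that bends the cell membrane, had 16.8, 21.1, 19.3 and 16.4 CPM in testosterone sheep, against 44.8, 31.7, 46.7 and 27.1 CPM in control sheep. DSTN, the actin-severing protein destrin, had 120, 124, 127 and 105 CPM in testosterone sheep, against 193, 233, 155 and 194 CPM in control sheep. The testosterone sheep were close together in both genes and below all controls, with log2 fold changes of -1.03 (SE 0.21) and -0.70 (SE 0.15). IER2, which cells switch on within minutes of a stimulus, had 74.1, 59.1, 58.1 and 60.3 CPM in testosterone sheep, against 83.9, 139, 101 and 123 CPM in control sheep. TCF15, a transcription factor of capillary endothelium in mice, averaged 11.1 ± 1.30 CPM in testosterone sheep and 22 ± 5.14 CPM in control sheep.

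TMEM72, a transmembrane protein, had 0.92, 0, 0 and 0 CPM in testosterone sheep, against 3.66, 2.7, 1.96 and 2.29 CPM in control sheep. It was detected in 1 testosterone library and in every control library, at a level where its fitted log2 fold change of -3.87 (SE 0.86) rests on few reads. The others of the 10 were CD3EAP (-0.84 on the log2 scale), a subunit of RNA polymerase I, the membrane protein MALL (-0.82), the scaffold SLC9A3R2 (-1.12), the translocon subunit SSR3 (-1.16) and the sialyltransferase ST3GAL4 (-0.72). The locus numbers LOC106990528 and LOC101117112 had log2 fold changes of -1.34 and -1.38. DESeq2 called BAIAP2L1, DSTN, TMEM72, both of these loci and GPR158 lower, with adjusted p from 0.0421 to 0.0496. GPR158, a class C receptor coupled to G proteins, had 3.22, 8.13, 1.64 and 4.27 CPM in testosterone sheep, against 19.3, 27.5, 19.3 and 8.0 CPM in control sheep, so that its groups overlapped by 1 library on each side. P2RY14 overlaps MED12L, MMP16 overlaps LOC105613866, BAIAP2L1 overlaps LOC132658535, IER2 overlaps LOC101103232, and ACAD11, SSR3, ST3GAL4, LOC114113424 and LOC106990528 each overlap another annotated gene (ACKR4, KCNAB1, KIRREL3, CLASP1 and GNRHR), so reads of these pairs may not be separated.

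**Figure D2:**
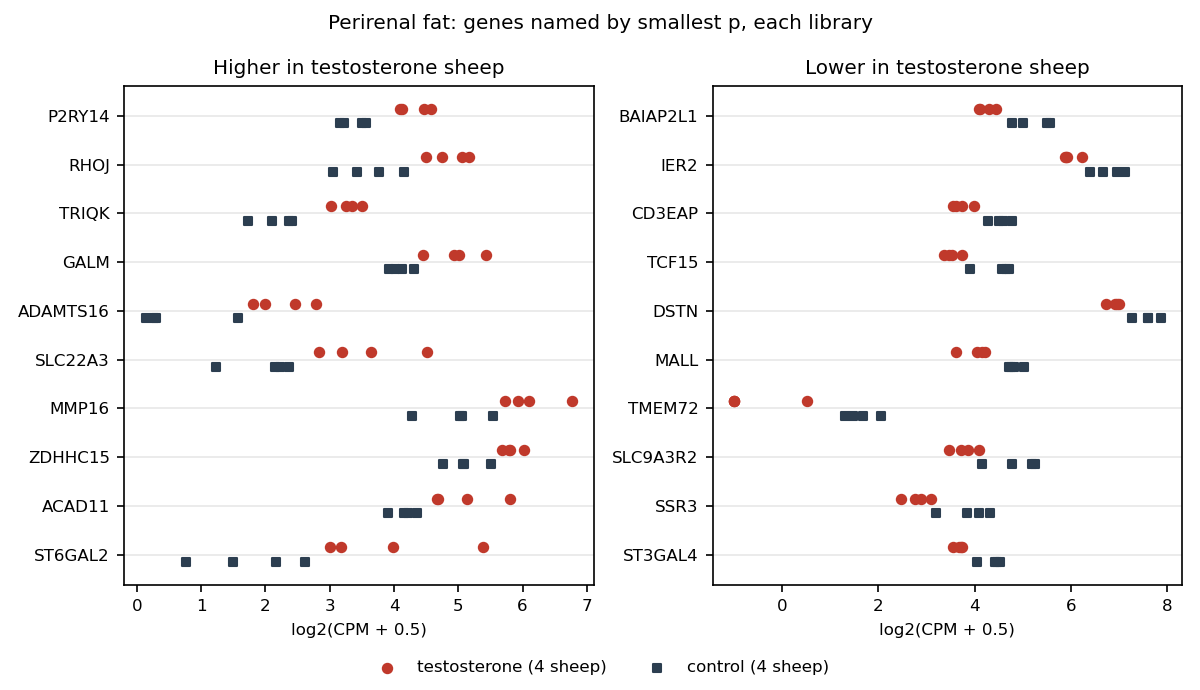
log2(CPM + 0.5) of the 10 genes of smallest p in each direction whose groups did not overlap, 1 point a library, testosterone sheep as circles above and control sheep as squares below. The left panel holds genes with higher values in testosterone sheep, such as RHOJ at 22 to 35.4 CPM in testosterone sheep against 7.8 to 17.3 CPM in control sheep, and the right panel genes with lower values, such as BAIAP2L1 at 16.4 to 21.1 CPM in testosterone sheep against 27.1 to 46.7 CPM in control sheep.

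Steroid hormone receptors, through which the adult implants and the stress axis act on fat, showed no call. Of 6 receptor genes tested, 0 had an unadjusted p under 0.05, and their median log2 fold change was 0.21 against 0.00 over all genes. ESR1, the main estrogen receptor of fat, had 50.6, 76.1, 133 and 36.2 CPM in testosterone sheep, against 30.7, 49.8, 76.4 and 49.7 CPM in control sheep. The groups overlapped widely, and the 95% interval of its log2 fold change ran from -0.37 to 1.41. For the progesterone receptor PGR the interval was -0.80 to 0.67, and for the glucocorticoid receptor NR3C1 it was -0.16 to 0.58.

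Enzymes that convert steroids gave 1 gene higher and 1 lower at an unadjusted p under 0.05 of 9 tested, against 2.56% of all genes higher and 2.8% lower. SRD5A1, which makes dihydrotestosterone from testosterone, had 2.53, 3.75, 2.32 and 3.37 CPM in testosterone sheep, against 4.93, 6.3, 3.67 and 6.67 CPM in control sheep, with a log2 fold change of -0.83. Only the lowest control sheep, 132, lay within the range of the testosterone sheep. HSD17B11, an enzyme that oxidises androgens and sits on lipid droplets, averaged 35.8 ± 8.62 CPM in testosterone sheep and 26.2 ± 2.87 CPM in control sheep. Among the genes that respond to estradiol or progesterone, 0 of 9 had an unadjusted p under 0.05. Among 14 genes that respond to glucocorticoids or androgens, 0 were higher and 2 were lower at an unadjusted p under 0.05. SGK1, a kinase induced by glucocorticoids and mineralocorticoids, had 20.2, 18.4, 11.9 and 15.5 CPM in testosterone sheep, against 28.6, 31.5, 25.3 and 21.7 CPM in control sheep, without overlap. For FKBP5, the standard marker of glucocorticoid action, the 95% interval was -0.76 to 0.53. HSD11B1, which regenerates cortisol, ranged from 75.2 to 269 CPM in testosterone sheep and from 66.9 to 278 CPM in control sheep.

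The fat-storing program gave no call, and PPARG, LEP and ADIPOQ were measured with high counts. CEBPA, at 0.230 to 1.27 CPM over the 8 libraries, CEBPB, at most 0.388 CPM, and KLF5, at most 0.274 CPM, had too few counts to be tested. PPARG, the master regulator of adipocytes, averaged 357 ± 35.2 CPM in testosterone sheep and 349 ± 102 CPM in control sheep, with a 95% interval of -0.42 to 0.49. The satiety hormone gene LEP had 346, 609, 159 and 385 CPM in testosterone sheep, against 674, 414, 193 and 218 CPM in control sheep. The groups covered the same range, and the interval of -1.05 to 1.05 would still hold a change of 2-fold in either direction. ADIPOQ had an interval of -0.73 to 1.06. Among the adipogenic transcription factors, 2 of 11 had an unadjusted p under 0.05, both with higher values in testosterone sheep. KLF15, a regulator of lipid and amino acid metabolism, had 97.1, 91.6, 117 and 87.0 CPM in testosterone sheep, against 56.9, 68.1, 86.6 and 72.8 CPM in control sheep, and ZNF423, a factor of preadipocytes, had a log2 fold change of 0.41.

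Among genes of lipid handling, some low p-values went in either direction. LPL, the lipase that frees fatty acids from circulating lipoproteins, had 3548, 2799, 4458 and 3813 CPM in testosterone sheep, against 1643, 2413, 2875 and 2058 CPM in control sheep. A single pair of libraries overlapped, and the log2 fold change was 0.70 (SE 0.21). VLDLR, a lipoprotein receptor that works beside LPL, averaged 94.6 ± 18.6 CPM in testosterone sheep and 50.9 ± 24.6 CPM in control sheep. In the list of fatty acid uptake 3 of 13 genes were higher and 1 was lower at an unadjusted p under 0.05, against 2.56% of all genes higher and 2.8% lower. The lower one was the fatty acid carrier FABP5 (log2 fold change -0.52). ADRB3, the receptor by which noradrenaline starts lipolysis, had 47.2, 43.2, 43.4 and 54.4 CPM in testosterone sheep, against 123, 91.5, 66.2 and 54.5 CPM in control sheep. The groups touched at 54.4 and 54.5 CPM, and the log2 fold change was -0.84 (SE 0.24). PLIN2, a coat protein of lipid droplets, averaged 76.4 ± 18.6 CPM in testosterone sheep and 129 ± 62.9 CPM in control sheep. Lipogenesis had 0 of 18 genes at that p, fatty acid oxidation 0 of 19, oxidative phosphorylation 0 of 19 and insulin signalling 0 of 22.

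**Figure D3:**
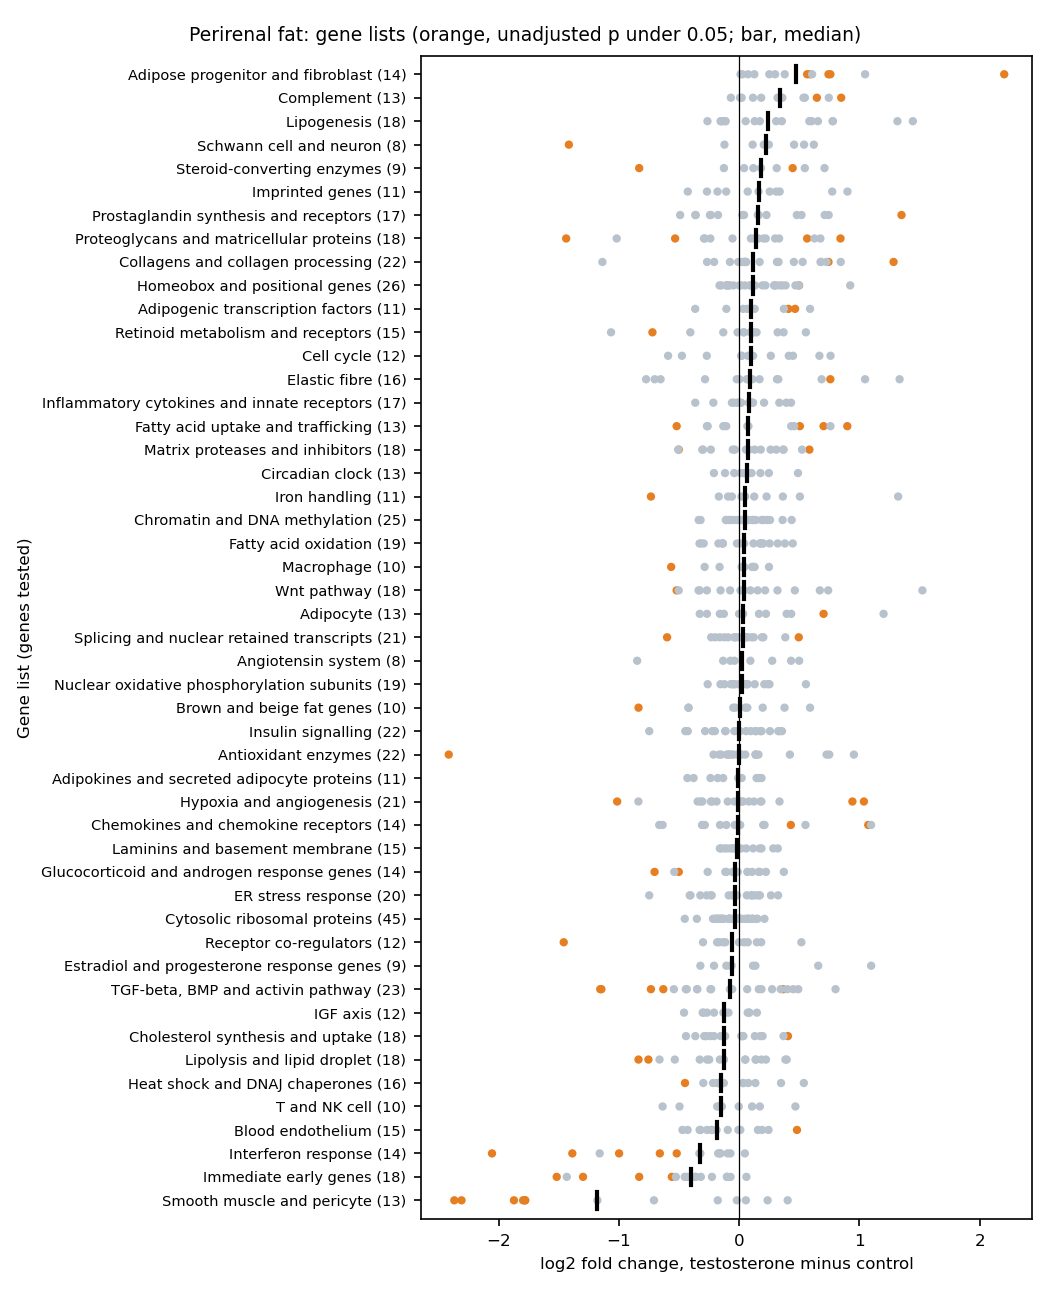
log2 fold change, testosterone minus control, of every tested member of the gene lists with at least 8 tested genes (number in brackets), 1 point a gene; orange points have an unadjusted edgeR p under 0.05 and black bars are list medians. Medians lie near 0 for most lists and are farthest from it for smooth muscle and pericyte genes (-1.18) and for adipose progenitor and fibroblast genes (0.47).

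Smooth muscle genes had the lowest median of the lists with at least 8 tested genes. Of 13 genes of smooth muscle and pericytes, 0 were higher and 6 were lower at an unadjusted p under 0.05, against 2.8% of all genes lower at that p, and the median log2 fold change was -1.18. The 6 encode the contractile apparatus. ACTA2, smooth muscle actin, had 46.7, 84.9, 176 and 41.9 CPM in testosterone sheep, against 236, 674, 167 and 205 CPM in control sheep. MYH11, the smooth muscle myosin, had 28.5, 14.2, 32.3 and 10.1 CPM in testosterone sheep, against 41.7, 149, 31.2 and 72.6 CPM in control sheep. In both genes control sheep 131 was the highest and testosterone sheep 233 and control sheep 132 made the overlap.

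LMOD1, which nucleates actin filaments in smooth muscle, did not overlap: it had 2.3, 2.35, 1.5 and 2.46 CPM in testosterone sheep, against 7.74, 14.1, 3.55 and 4.19 CPM in control sheep. DES, ACTG2 and CNN1 had log2 fold changes of -2.37, -2.31 and -1.78. DES and ACTG2 rest on few reads in testosterone sheep, at most 2.19 and 3.42 CPM, against at least 2.11 and 2.29 CPM in control sheep. DES in testosterone sheep 255 and ACTG2 in testosterone sheep 48 lay below the floor of 3 counts. Pericyte and shared markers of the list had log2 fold changes nearer 0: 0.24 for RGS5, 0.40 for MCAM, 0.06 for MYLK, -0.18 for NOTCH3 and -0.02 for KCNJ8. The sign of MCAM and MYLK turned when single sheep were left out. These 2 had the highest mean levels of the list. MCAM averaged 1273.7 CPM in testosterone sheep and 963.3 CPM in control sheep, and MYLK averaged 699.8 and 673.1 CPM. TAGLN (-1.18) and SMTN (-0.71), also of smooth muscle, were below 0, neither with an unadjusted p under 0.05. Without control sheep 131 the median was -0.66, with 6 genes lower and 1 higher, and with limma-voom it was -0.77. None of these genes passed the FDR, and the part that vessel content in a piece of fat had in them was not tested.

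Genes of adipose progenitors and fibroblasts lay on the other side. All 14 tested had a log2 fold change above 0 (11 to 13 when single sheep were left out), with a median of 0.47, and 5 were higher at an unadjusted p under 0.05, against 2.56% of all genes. Over all 12872 genes, 6542 lay above 0. Summed over the list, testosterone sheep had 4399, 6392, 8009 and 7005 CPM, against 3709, 4567, 4543 and 5157 CPM in control sheep. GSN, the actin-binding protein gelsolin, averaged 320 ± 36.6 CPM in testosterone sheep and 213 ± 47.5 CPM in control sheep. FBN1, the microfibril protein fibrillin, averaged 615 ± 175 CPM in testosterone sheep and 364 ± 108 CPM in control sheep. PI16, a marker of early progenitors in the walls between lobules, had 26.7, 397, 118 and 155 CPM in testosterone sheep, against 23.8, 38.3, 27.6 and 62.1 CPM in control sheep. In PI16, as in the list's sum, testosterone sheep 48 lay among the controls while the other 3 lay above every control. The basement membrane collagen COL15A1 (0.74) and the proteoglycan decorin, DCN (0.56), were the other 2 of the 5, and 3 (without testosterone sheep 233) to 7 genes had an unadjusted p under 0.05 when single sheep were left out.

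The matrix these cells make gave medians nearer 0. Of 22 genes of collagens and their processing, 2 were higher and 0 lower at an unadjusted p under 0.05, and the median was 0.11. COL1A1 and COL3A1, the main fibrillar collagens, had log2 fold changes of 0.73 and 0.84, neither with an unadjusted p under 0.05. Testosterone sheep 233 had the highest COL3A1 level, 1468 CPM, and without it the log2 fold change of COL3A1 was 0.26. The matricellular proteins CCN1 and THBS1, which are secreted by stressed or contracting cells, had lower values in testosterone sheep. CCN1 had 63.0, 74.1, 39.4 and 38.8 CPM in testosterone sheep, against 167, 232, 138 and 45.5 CPM in control sheep. In the TGF-beta, BMP and activin list 1 of 23 genes was higher and 4 were lower at an unadjusted p under 0.05, against 2.56% of all genes higher and 2.8% lower. BMP6, a ligand of that family, had 16.3, 26.4, 19.0 and 21.2 CPM in testosterone sheep, against 38.2, 40.2, 27.0 and 33.0 CPM in control sheep, and INHBA, a subunit of activin A, had a log2 fold change of -1.15. For BMP6 the groups did not overlap, though the highest testosterone and lowest control sheep, at 26.4 and 27.0 CPM, were close.

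Immediate early genes respond within minutes to stimuli that include the handling of tissue. Their log2 fold change was below 0 in 17 of 18, with a median of -0.40 and 4 lower at an unadjusted p under 0.05. Over all 12872 genes, 6330 lay below 0 and 2.8% were lower at that p. Besides IER2 the 4 were IER5 (-0.56), EGR3 (-1.52) and EGR2 (-1.30). The values of FOS, the best-known member, were 10.4, 27.0, 33.9 and 7.12 CPM in testosterone sheep, against 4.36, 116, 86.7 and 4.76 CPM in control sheep. Control sheep 131 and 132 held the high values while the other 2 controls were the lowest of all 8. Without control sheep 131 the list's median was -0.20, with 2 genes lower at that p, and limma-voom also gave 2.

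Interferon response genes gave 0 higher and 5 lower of 14 at an unadjusted p under 0.05, against 2.8% of all genes lower, with a median of -0.33. The difference came with 1 control animal. MX1, an antiviral GTPase, had 18.6, 16.1, 11.6 and 24.8 CPM in testosterone sheep, against 31.7, 19.96, 111 and 22.5 CPM in control sheep. ISG15, an interferon-induced ubiquitin-like protein, had 1.84, 1.41, 1.91 and 4.92 CPM in testosterone sheep, against 5.77, 2.25, 29.4 and 5.15 CPM in control sheep. Control sheep 132 was the highest library for both, and without it the median was -0.07 with 0 genes at that p. The count was also lower without testosterone sheep 185 or 233 (1 gene each), without testosterone sheep 48 (2), without control sheep 98 (3) and in limma-voom (1).

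**Figure D4:**
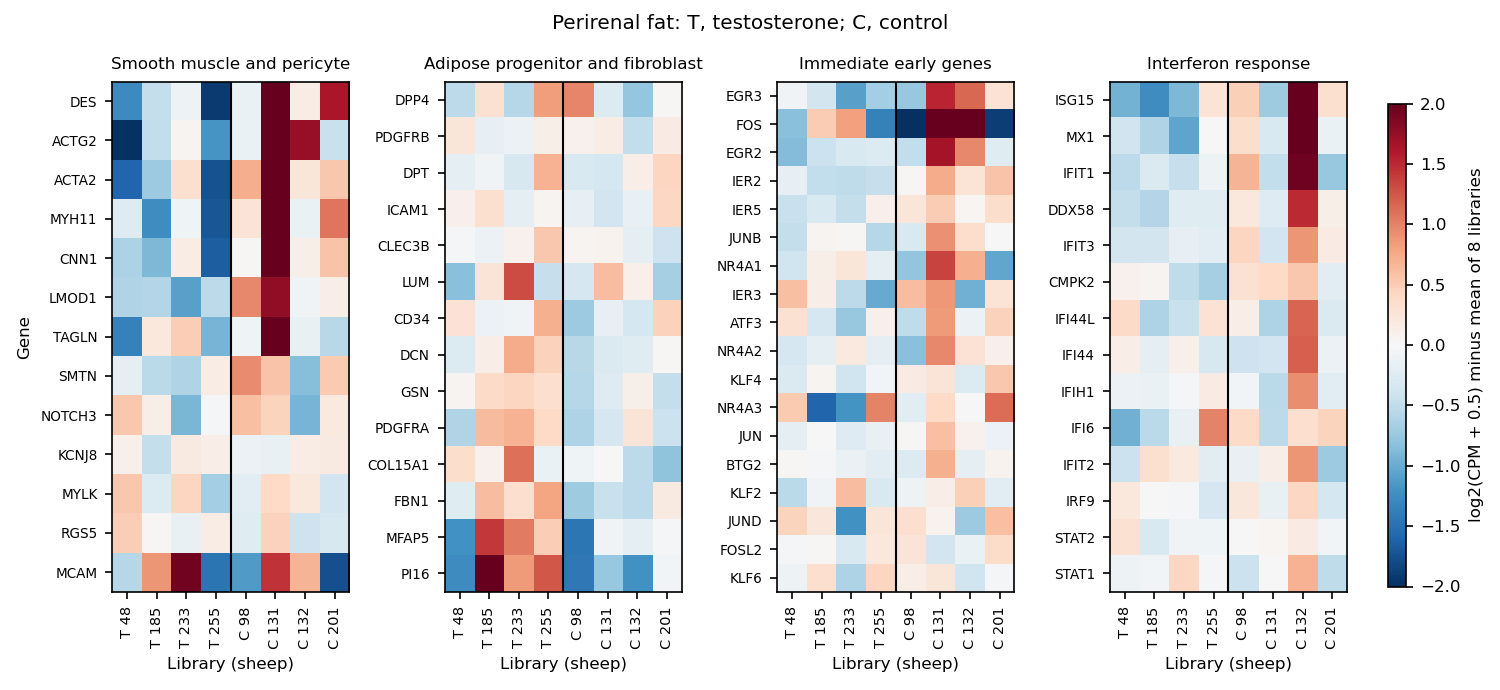
log2(CPM + 0.5) minus the mean of the 8 libraries for the tested members of 4 gene lists (rows) in each library (columns, testosterone sheep T left of the line, control sheep C right of it), with colours ending at 2 in either direction. Control sheep 131 carries the high values of contractile and immediate early genes, as in ACTA2 at 674 CPM, and control sheep 132 those of interferon response genes, as in MX1 at 111 CPM.

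The other lists gave few low p-values. Complement genes, many of them made by fibroblasts and adipocytes, were above 0 in 12 of 13, with a median of 0.34. Over all 12872 genes, 6542 lay above 0. CD55, an inhibitor that protects cells from complement, and the protease C1S were the 2 higher at an unadjusted p under 0.05, against 2.56% of all genes. Blood endothelium had 1 of 15 genes higher at that p, and 10 of 15 below 0, against 6330 of all 12872 genes below 0. Of 10 macrophage genes 1 was lower: the mannose receptor MRC1 averaged 160 ± 39.3 CPM in testosterone sheep and 237 ± 41.3 CPM in control sheep. T and NK cell genes had 0 of 10 at that p and sums of 43.4 to 95.1 CPM in testosterone sheep and 53.0 to 97.6 CPM in control sheep. Cytosolic ribosomal protein genes had 0 of 45 and a median of -0.03. ARGLU1, a transcript rich in the nucleus, lay between 231 and 753 CPM in testosterone sheep and between 335 and 607 CPM in control sheep. Of 26 homeobox and positional genes, which record where in the body a depot formed, 1 had an unadjusted p under 0.05. It was HOXA9, at 50.8, 67.2, 55.4 and 61.0 CPM in testosterone sheep, against 28.9, 47.4, 41.7 and 48.2 CPM in control sheep. HOXC9 (95% interval -0.47 to 0.64) and WT1 (-0.30 to 0.81) overlapped between the groups, and TBX15 was near 0 in all libraries.

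Signals between cells gave further single genes at an unadjusted p under 0.05, none past the FDR. VEGFC, a growth factor of lymphatic vessels, had 11.7, 12.5, 7.11 and 5.95 CPM in testosterone sheep, against 21.4, 26.3, 13.0 and 14.1 CPM in control sheep. ACKR3, a scavenging receptor of the chemokine CXCL12, had 12.9, 39.2, 35.6 and 24.2 CPM in testosterone sheep, against 9.15, 22.2, 13.3 and 8.58 CPM in control sheep. The VEGFC groups did not overlap, while in ACKR3 testosterone sheep 48 lay among the controls, as it did in PI16. The chemokine CCL14 averaged 704 ± 157 CPM in testosterone sheep and 523 ± 51.9 CPM in control sheep, and the Wnt pathway transcription factor TCF7L1 averaged 51.8 ± 2.22 CPM in testosterone sheep and 74.3 ± 14.9 CPM in control sheep, both without overlap. GSTA1, a glutathione transferase, had 1.15, 2.19, 2.05 and 3.62 CPM in testosterone sheep, against 1.55, 7.5, 3.67 and 37.9 CPM in control sheep. Its high mean in controls lay in sheep 201. Among 11 imprinted genes, which are read from a single parental copy, 0 had an unadjusted p under 0.05. NNAT, a small membrane protein of fat and nerve, ranged widely, at 1137, 979, 14075 and 596 CPM in testosterone sheep, against 3397, 4074, 1706 and 646 CPM in control sheep.

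Whether testosterone had another effect in perirenal fat than elsewhere was tested as the perirenal log2 fold change minus the mean of those in visceral, subcutaneous and epicardial fat, with the sheep as a block in a fit of all 32 libraries. The 4 depots came from the same 8 animals. Of 14225 genes, 1 passed an FDR of 0.05 (0.00703%), PCOLCE2, and 786 (5.53%) had an unadjusted p under 0.05. PCOLCE2 is a secreted protein that speeds the trimming of procollagen by the protease BMP1. In perirenal fat it had 108, 414, 343 and 323 CPM in testosterone sheep, against 93.3, 108, 168 and 119 CPM in control sheep. Testosterone sheep 185, 233 and 255 lay above every control while sheep 48 lay among them, with a log2 fold change in this depot of 1.28 (SE 0.36) and an adjusted p in edgeR of 0.878.

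In the other depots PCOLCE2 had lower values in testosterone sheep: its log2 fold change was -0.99 (SE 0.32) in visceral, -0.79 (SE 0.26) in subcutaneous and -0.39 (SE 0.26) in epicardial fat. On the scale of all 32 libraries visceral fat had 119, 152, 243 and 80.0 CPM in testosterone sheep, against 279, 236, 382 and 281 CPM in control sheep. The perirenal difference from the other depots was 1.99 (SE 0.33, edgeR adjusted p = 0.0328). The call was not stable: adjusted p was 0.218 in edgeR without the sheep block, 0.0512 in limma-voom, and 0.0822 in edgeR without 3 libraries of other depots that stand apart (subcutaneous of testosterone sheep 48, visceral and epicardial of testosterone sheep 255). Left-out sheep kept the difference between 1.75 and 2.28, but the call held in 1 of 8 such fits, the one without testosterone sheep 48. The collagen-processing partners BMP1 and PCOLCE had perirenal log2 fold changes of 0.68 and 0.33, with groups that overlapped, and PCOLCE had 0.10 without testosterone sheep 233.

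**Figure D5:**
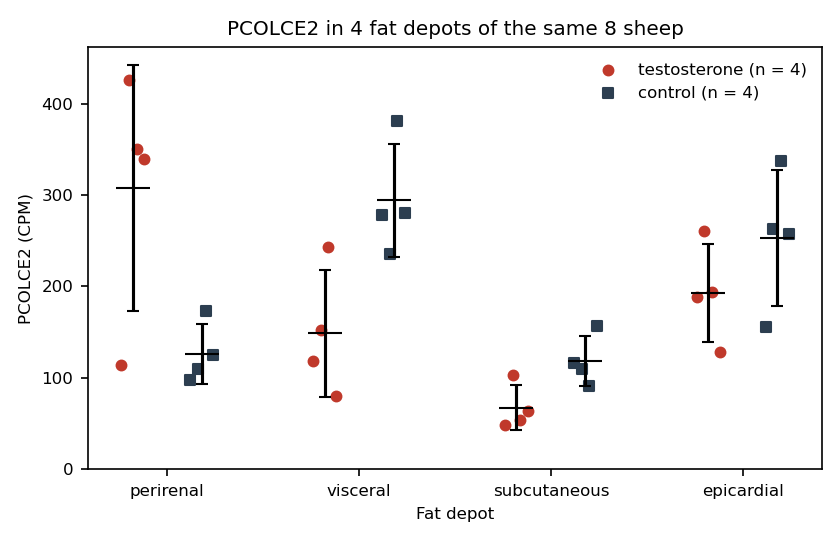
PCOLCE2 in CPM (vertical axis) in the 4 fat depots of the same 8 sheep, testosterone sheep as circles left of control sheep as squares, with bars for the mean and SD of 4 libraries. In perirenal fat 3 of 4 testosterone sheep, at 339 to 426 CPM, lie above the control sheep at 97.9 to 173 CPM, while in visceral fat the testosterone sheep lie lower, at 80.0 to 243 CPM against 236 to 382 CPM in control sheep.

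For the genes of smallest p in perirenal fat, the other depots are given side by side, since the same animals supplied them. RHOJ had higher values in testosterone sheep in each: its log2 fold change was 2.26 in visceral, 1.6 in subcutaneous and 1.36 in epicardial fat beside 1.27 in perirenal fat, and its depot difference was -0.43 (SE 0.45, edgeR adjusted p = 0.942). Its ranges on the scale of all 32 libraries were 39.5 to 102 CPM in testosterone and 20.3 to 36.3 CPM in control sheep in epicardial fat, and 29.4 to 64.7 CPM in testosterone and 9.53 to 16.6 CPM in control sheep in subcutaneous fat. In visceral fat it had 29.9, 22.5, 33.6 and 121 CPM in testosterone sheep, against 14.1, 10.8, 7.7 and 10 CPM in control sheep. The highest, sheep 255, is 1 of the 3 libraries that stand apart, and without those 3 the RHOJ values were 1.4 in visceral, 1.34 in subcutaneous and 1.57 in epicardial fat. SLC22A3 had 2.15, 2.22 and 0.90 in those depots and BAIAP2L1 had -0.70, -0.95 and -0.36, each in the order visceral, subcutaneous, epicardial. Without the 3 libraries SLC22A3 had 2.27, 2.48 and 1.13 and BAIAP2L1 had -0.55, -0.94 and -1.19. P2RY14 had 0.15, 0.89 and 0.15 there, so that its subcutaneous value was close to the perirenal one. MMP16, at -0.11, 0.19 and -0.37, had smaller values in those depots than in perirenal fat. Without the 3 libraries P2RY14 had 0.32, 0.67 and 0.03 and MMP16 had 0.06, 0.19 and -0.32. The depot difference of MMP16 was 1.29 (SE 0.29, edgeR adjusted p = 0.773), and that of P2RY14 did not pass the FDR either.

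MYH11 and LMOD1, contractile genes, and PI16 and MFAP5, progenitor genes, also had opposite signs between depots, in part through the libraries that stand apart. Other members of their lists did not all do so. COL15A1 in visceral fat had 556 to 689 CPM in testosterone and 233 to 404 CPM in control sheep, higher as in perirenal fat. ACTA2 there had 90.8, 151, 216 and 78.7 CPM in testosterone sheep, against 169, 387, 121 and 109 CPM in control sheep. MYH11 had a log2 fold change of -1.80 in perirenal fat and of 0.70, 1.14 and 0.31 in visceral, subcutaneous and epicardial fat, a depot difference of -2.40 (SE 0.55, edgeR adjusted p = 0.773). In subcutaneous fat MYH11 had 104, 5.46, 21.9 and 24.1 CPM in testosterone sheep, against 6.47, 18.3, 22.3 and 16.1 CPM in control sheep, so that sheep 48 alone lay above the controls by a wide margin. Without the 3 libraries MYH11 had 0.58, 0.15 and 0.29 in those depots, and a depot difference of -2.07 (edgeR adjusted p = 0.466).

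LMOD1 had -1.78 in perirenal fat and 1.46, 2.45 and 1.78 in visceral, subcutaneous and epicardial fat, and the visceral and subcutaneous values rest on 1 library each. In visceral fat LMOD1 reached 31.3 CPM in testosterone sheep 255, against at most 7.81 CPM in the other 7 libraries, and in subcutaneous fat 140 CPM in testosterone sheep 48, against at most 11 CPM in the others. Without the 3 libraries LMOD1 had 0.39, 0.50 and 1.99, and its depot difference was -2.59, against -3.24 with all 32 libraries. PI16 had 2.20 in perirenal fat and -0.97, -0.07 and -0.67 in the others, and -0.76, -0.12 and -0.67 without the 3 libraries. MFAP5, a microfibril protein of the same progenitors, had 1.05 in perirenal fat and -1.08, -0.44 and -0.79 in the others, and -0.85, -0.24 and -0.62 without the 3 libraries. The depot differences of MYH11, LMOD1, PI16 and MFAP5 did not pass the FDR with or without the 3 libraries. Within the other depots edgeR called 0 genes for testosterone in visceral, subcutaneous or epicardial fat, with 1212 (9.42%), 622 (5.11%) and 722 (5.64%) at an unadjusted p under 0.05.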

How the data were processed

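The authors deposited raw read counts per gene, not normalized, for 28524 genes in 32 libraries of 3′ end sequencing, and all values were whole numbers. The submitters' processing notes name STAR, featureCounts 1.6.1 and Trimmomatic 0.36, as well as MultiQC 0.9, FastQC 0.11.5, DESeq2 1.24.0 and R 3.6.3, without their roles. Genome build, annotation and strand setting were not given in the sources used here. Overlapping genes may therefore share reads.

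Tests used edgeR 4.0.16 in R 4.3.3 on the 8 perirenal libraries (filterByExpr with a minimum count of 10, TMM, robust quasi-likelihood fit, Benjamini-Hochberg over all genes tested, FDR under 0.05). Standard errors are |log2 fold change| over the root of the F statistic, and intervals are 95%. The depot difference used 32 libraries with the sheep as a block, because each of the 8 sheep gave all 4 depots. limma 3.58.1 (voom) and DESeq2 1.42.0, other scalings and filters, and leaving out each sheep were alternatives. The scripts were tested on simulated data. The text names, per direction, the 10 genes of smallest p without overlap, locus numbers apart (at most 2), up to 2 genes per list, a fixed set of receptor, adipocyte and positional genes, and genes passing in the depot difference. Genes beyond this rule (GPR158, further list members such as MCAM, FOS and COL1A1, and partners of PCOLCE2) were chosen after their values were seen. The members, the rule and the 62 gene lists were chosen with earlier results of these data known. Overlaps between genes were read from a RefSeq gene table.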

Additional observations from a re-analysis of the deposited data

Results flagged for a closer look

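Within the groups of 4 sheep, 26 of 315 groups of values (genes and summed lists) had a highest or lowest library whose gap to the next was, relative to the group's range, above Dixon's 95% critical value. Chance flags about 1 in 20 groups of independent, normally distributed values. The values here were CPM without a log scale, some lists share genes, and some genes were chosen after their values were seen. The number flagged was therefore not judged against that share.

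Among testosterone sheep, sheep 233 stood apart in summed CPM for steroid receptors (945), glucocorticoid and androgen response genes (3776), adipogenic transcription factors (2750), adipokines (22587), imprinted genes (17566, of which NNAT, a gene expressed in nerve and fat, gave 14075), and skeletal muscle genes (19.3, the lowest), and for LMOD1 (1.5 CPM, the lowest). Sheep 48 was high for IER2 (74.1 CPM), and sheep 255 for ISG15 (4.92 CPM) and the mesothelial sum (149 CPM).

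Among control sheep, sheep 131 was high for ACTA2 (674 CPM), CNN1 (47.0 CPM), RGS5 (237 CPM) and the fatty acid oxidation sum (2720 CPM). Sheep 132 was high for DDX58 (24.1 CPM), ISG15 (29.4 CPM), MX1 (111 CPM), the interferon response sum (691 CPM) and NR3C2 (36.3 CPM). Sheep 201 was high for ADAMTS16 (2.48 CPM), GSTA1 (37.9 CPM) and the steroid-converting enzyme sum (461 CPM). Sheep 98 was low for LOC114113424 (10.1 CPM) and MFAP5 (57.6 CPM) and high for the Wnt pathway sum (2322 CPM) and the T and NK cell sum (97.6 CPM).

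In the main edgeR fit the testosterone effect on PCOLCE2 differed between perirenal fat and the mean of the other depots, by 1.99 on the log2 scale. This was a test of the difference itself. The call was not stable: it held in 1 of 8 fits that left out a sheep, with the other changing calls given above.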

How the results depend on the processing

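The count of 0 genes at an FDR of 0.05 held under every scaling, filter, limma-voom, the fit sharing the spread of 32 libraries and every left-out sheep (0 to 0); DESeq2 called 10, made up of 7 of the 20 symbols of smallest p, 2 loci and GPR158. Genes at an unadjusted p under 0.05 numbered 439 without control sheep 98 and up to 885 without another sheep.

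For the depot difference, the fit without the replicate block of sheep called 0 genes (514 at an unadjusted p under 0.05) and gave PCOLCE2 2.01 with an edgeR adjusted p of 0.218. limma-voom with the block called 0 (1.94), and so did the fit without 3 libraries of other depots, chosen after seeing the data (1.81). Leaving out sheep gave 0 to 2 genes, 491 to 946 at an unadjusted p under 0.05, and PCOLCE2 at 1.75 to 2.28. The cause was not tested. Without those 3 libraries the effect on MMP16 in visceral fat was 0.063, against -0.11 with them. No paired analysis was possible because testosterone and control perirenal libraries come from different sheep with no shared numbers.

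In perirenal fat signs turned in 11 of 100 genes, all with a log2 fold change of at most 0.40 in size. The log2 fold change of LEP in perirenal fat was 0.0076 under DESeq2's factors, 0.0094 under upper-quartile factors, 0.0054 with the CPM filter, 0.0077 in DESeq2, 0.0325 in limma-voom and 0.003 with 32 libraries. limma-voom gave 0.007 for PGR and -0.0293 for ARGLU1. Left-out sheep gave ranges of -0.31 to 0.12 for PGR, -0.451 to 0.0409 for FKBP5, -0.33 to 0.45 for LEP, -0.37 to 0.44 for ADIPOQ, -0.10 to 0.19 for PPARG, -0.145 to 0.0262 for FOXD1, -0.15 to 0.27 for HOXC9, -0.26 to 0.28 for ARGLU1, -0.13 to 0.24 for MYLK, -0.40 to 1.09 for MCAM and -0.46 to 0.64 for HSD11B1.

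With 4 sheep a group and a median standard error of 0.24 on the log2 scale, small changes in perirenal fat were not detectable at this design.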
